A study of Mus musculus with 36 samples.

Results

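Emx1, Emx2, Lhx2, Neurod6, Zbtb18, Dlx1, Dlx2, Nkx2-1 and Zic5 are 9 transcription factor genes. The first 8 act in patterning or neuron differentiation in the developing telencephalon. This part of the forebrain forms the cerebral cortex, hippocampus, olfactory bulb and basal ganglia. Zic5 was grouped with them by name, although its newborn values went against that grouping. They were chosen by name, with earlier results of these data known, from the 29799 genes of the deposited table, and all 9 were found in it. The table covers 36 brain libraries of C57BL/6 mice, in 12 groups of 3 that combine 3 ages, both sexes and 2 genotypes. The genotypes were heterozygous Chd8+/S62X (HT), in which 1 copy of the chromatin remodeler gene Chd8 carries a premature stop codon in the germ line and hence in all cells, and wild type (WT). The ages were newborn (P0), juvenile (P25) and adult (P80, called P56 in the sample descriptions and column names), and the tissue label of each sample was whole brain. The normalized counts of a library summed to between 31872449 and 38154000, and between 24400 and 26327 genes had a value above 0.

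Telencephalic neurons arise in separate places. Excitatory neurons come from the dorsal telencephalon (the pallium), where Emx1 and Emx2 are homeobox genes of cortical progenitors, Lhx2 is a LIM-homeobox gene that sets cortical against neighboring identity, Neurod6 is a basic helix-loop-helix gene of postmitotic excitatory neurons, and Zbtb18 encodes a zinc finger repressor needed for cortical neuron differentiation and migration. Inhibitory neurons come from the ventral telencephalon (the ganglionic eminences), where the neighboring homeobox genes Dlx1 and Dlx2 drive interneuron and striatal development and Nkx2-1 specifies the medial eminence. Zic5 belongs to the Zic family of zinc finger genes, which act along the dorsal midline of the neural tube and in the cerebellum, and it lies beside Zic2. Several of the factors are also used outside the telencephalon, for example Emx2 and Lhx2 in parts of the diencephalon and Nkx2-1 in the hypothalamus.

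The genes lie on 6 different chromosomes of the mouse genome (GRCm38, GENCODE). The dorsal genes are Emx1 (chr6:85187438-85204462, plus strand), Emx2 (chr19:59458372-59465357, plus), Lhx2 (chr2:38339281-38369733, plus), Neurod6 (chr6:55677822-55681263, minus) and Zbtb18 (chr1:177442351-177450764, plus). The ventral genes are Dlx1 (chr2:71528113-71533981, plus), Dlx2 (chr2:71543408-71546754, minus) and Nkx2-1 (chr12:56531958-56536908, minus), and Zic5 is at chr14:122456795-122465677 on the minus strand. Annotated antisense genes overlap Emx2, Lhx2, Zbtb18, Dlx1 and Nkx2-1. Counted over whole gene spans, introns included, the overlap is 5869 bases for Dlx1as at Dlx1 and 264 bases for Emx2os at Emx2. The overlap of exons alone was not computed. The library kit does not mark strand, so reads from the bases these pairs share cannot be assigned by strand.

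Promoter sequence is shown for the 6 factors whose RefSeq window has bases outside annotated exons. The windows of Emx1, Emx2 and Dlx1 lie inside exons and are not shown. Lhx2 and Zbtb18 have further RefSeq starts inside the gene, and their first start is shown. Of the others, 2 of Zbtb18 leave 115 and 121 bases outside exons, with 0 E-boxes each. Each run is the sequence before the RefSeq start site (GRCm38.p6) that lies outside annotated exons, read 5′ to 3′ on the gene's strand, and capitals mark every CANNTG (an E-box, the motif that basic helix-loop-helix proteins such as Neurod6 bind).
Lhx2, chr2:38339031-38339280, plus strand: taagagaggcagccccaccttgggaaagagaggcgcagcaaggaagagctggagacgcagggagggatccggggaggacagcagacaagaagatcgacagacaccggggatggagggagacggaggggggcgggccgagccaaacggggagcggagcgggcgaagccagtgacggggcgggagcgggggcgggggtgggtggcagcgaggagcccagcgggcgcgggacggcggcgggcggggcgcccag
Zbtb18, chr1:177442101-177442350, plus strand: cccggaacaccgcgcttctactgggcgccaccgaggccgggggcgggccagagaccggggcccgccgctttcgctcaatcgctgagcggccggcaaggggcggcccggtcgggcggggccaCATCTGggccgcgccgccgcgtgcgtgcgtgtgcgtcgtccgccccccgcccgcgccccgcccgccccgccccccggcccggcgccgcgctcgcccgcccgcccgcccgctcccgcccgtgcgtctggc
Neurod6, chr6:55681264-55681513, minus strand: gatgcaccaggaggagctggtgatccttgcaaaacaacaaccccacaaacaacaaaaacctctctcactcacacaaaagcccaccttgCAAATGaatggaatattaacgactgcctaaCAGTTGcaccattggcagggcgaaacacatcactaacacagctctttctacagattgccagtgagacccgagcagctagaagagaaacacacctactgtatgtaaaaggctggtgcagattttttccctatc
Dlx2, chr2:71546755-71547004, minus strand: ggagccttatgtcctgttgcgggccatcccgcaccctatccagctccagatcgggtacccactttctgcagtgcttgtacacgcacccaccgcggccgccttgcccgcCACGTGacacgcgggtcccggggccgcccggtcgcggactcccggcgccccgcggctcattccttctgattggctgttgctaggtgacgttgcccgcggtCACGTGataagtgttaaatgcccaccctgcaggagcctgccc
Nkx2-1, chr12:56536909-56537158, minus strand: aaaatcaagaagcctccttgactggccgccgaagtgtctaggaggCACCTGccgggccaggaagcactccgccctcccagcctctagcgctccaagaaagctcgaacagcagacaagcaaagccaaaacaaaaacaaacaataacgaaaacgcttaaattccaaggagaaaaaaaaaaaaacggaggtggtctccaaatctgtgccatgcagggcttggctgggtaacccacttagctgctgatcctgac
Zic5, chr14:122465678-122465908, minus strand: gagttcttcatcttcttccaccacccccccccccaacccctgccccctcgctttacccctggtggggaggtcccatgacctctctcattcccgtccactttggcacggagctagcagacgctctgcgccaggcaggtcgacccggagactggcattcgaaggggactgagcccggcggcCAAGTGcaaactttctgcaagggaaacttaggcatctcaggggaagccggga
Neurod6 and Dlx2 hold 2 matches each, Zbtb18, Nkx2-1 and Zic5 hold 1 each, and Lhx2 holds 0. An E-box is common: 66.2% of 32851 mouse promoter windows of 250 bases hold one on either strand, and 63.4% of windows of 231 bases, the length shown for Zic5. TAATTA, a core bound by many homeodomain proteins, is in 4.84% of the 250-base windows and in none of these runs. Both motifs read the same way on either strand in the letters given, and a match is a description of the sequence only.

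The mutated gene was read first. Chd8 normalized counts at P25 were 6204, 6474 and 6691 in HT males against 4132, 3623 and 4166 in WT males, and 6747, 5905 and 6243 in HT females against 4225, 4046 and 4707 in WT females. At P80 they were 5149, 5069 and 4626 against 3571, 3743 and 3375 in males, and 4582, 4964 and 4737 against 3653, 3862 and 3607 in females. Chd8 was thus higher in every HT library than in every WT library of the same age and sex, by 0.62 ± 0.05 on the log2 scale at P25 and 0.42 ± 0.04 at P80 (limma, both sexes, SE, n = 6 against 6, adjusted p = 5.22e-05 and 0.000124). At P0 the groups overlapped, with differences of 0.25 ± 0.25 in males and 0.13 ± 0.15 in females (SE, n = 3 against 3). The gene total adds both alleles and goes against the lower level that loss of a copy would give, so HT and WT below mean the libraries labelled HT and the libraries labelled WT.

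At P0 the telencephalic factors split the libraries in a way that followed neither genotype nor sex alone. The split was uneven: all HT males and HT females 1 and 3 were low in Emx1, beside WT male 1 and WT female 2. Emx1 was 28.3, 20.1 and 0 in HT males and 4.73, 675 and 650 in WT males, and 44.4, 644 and 1.21 in HT females and 505, 19.1 and 493 in WT females. It was therefore near 500 or above in WT males 2 and 3, HT female 2 and WT females 1 and 3, and below 45 in the other 7 libraries.

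Midbrain and hindbrain markers, in their sum, ran the opposite way. En2, which marks the midbrain and anterior hindbrain, was 2201, 1478 and 1106 in HT males, 75.1, 5.99 and 3.23 in WT males, 701, 1.57 and 1637 in HT females, and 4.54, 1060 and 4.24 in WT females. Hoxb3, a hindbrain gene, was at most 1.56 in the 5 Emx1-high libraries and between 44.7 and 2733 in the other 7. The 26 midbrain and hindbrain markers summed to 19011, 21952 and 22380 in HT males and 37982, 635 and 283 in WT males. In females they summed to 27325, 698 and 23210 in HT and 532, 27759 and 809 in WT. Their most abundant gene was Tfap2b or Mab21l2 in the 7 libraries with the high sums and Gata2 or Tal1 in the rest, in which between 6 and 10 of the 26 were listed at 0. All 12 newborn libraries were labelled whole brain, yet En2 was at no more than 5.99 in the 5 Emx1-high libraries and Emx1 at no more than 44.4 in the other 7. Whether the dissection differed, or a label and its tube did not match, was not tested. HT female 1 had Dlx1 at 646 beside En2 at 701, and Dlx1 was at most 187 in the rest of the 7. Its Neurod6, at 1373, was near that of WT male 1, at 1280. In bulk RNA, fewer cells of a type and less RNA per cell cannot be told apart.

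**Figure D1:**
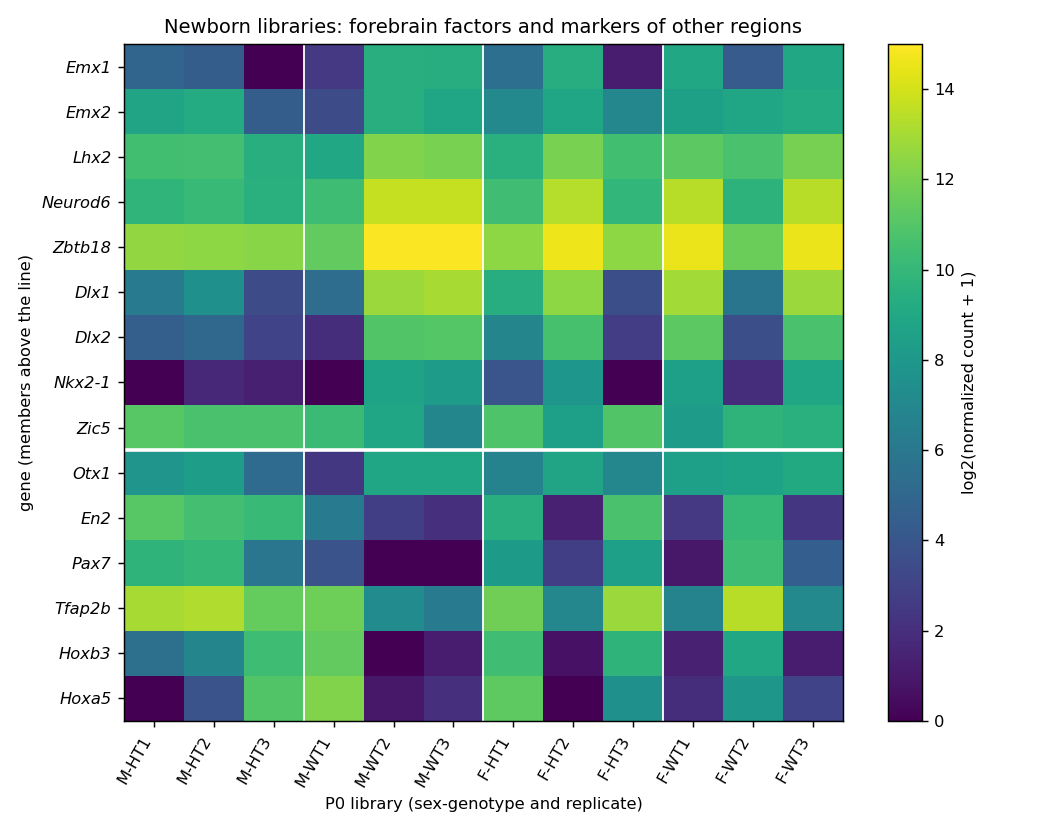
Each column is 1 of the 12 P0 libraries and each row a gene, with color for log2(normalized count + 1); the 9 factors stand above the white line and markers of the forebrain and midbrain (Otx1), midbrain and hindbrain (En2, Pax7, Tfap2b) and hindbrain (Hoxb3, Hoxa5) below it. M-WT2, M-WT3, F-HT2, F-WT1 and F-WT3 are bright for Emx1, Neurod6, Zbtb18, Dlx1, Dlx2 and Nkx2-1 and dark for En2 and Hoxb3, while Emx2 is also bright in M-HT1, M-HT2 and F-WT2.

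Neurod6 was 894, 1081 and 734 in HT males and 1280, 12895 and 13096 in WT males. In females it was 1373, 10232 and 987 in HT against 10529, 827 and 10617 in WT. Zbtb18 held a high floor: 6196, 5548 and 5148 in HT males against 2680, 30517 and 30213 in WT males, and 5673, 25424 and 5512 in HT females against 24559, 3154 and 24249 in WT females. Both genes were highest in the 5 Emx1-high libraries, with no overlap with the other 7, but neither fell to 0 anywhere.

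Lhx2 was 1427, 1463 and 665 in HT males, 491, 4602 and 4020 in WT males, 737, 3997 and 1394 in HT females and 2429, 1625 and 3866 in WT females. It followed the same split with a smaller span, 3.22 log2 units from the lowest to the highest library against 9.40 for Emx1. Emx2 did not follow it. Emx2 was 432, 600 and 20.7 in HT males, 9.98, 700 and 471 in WT males, 131, 456 and 120 in HT females and 371, 460 and 589 in WT females. HT males 1 and 2 and WT female 2 thus had Emx2 levels inside the range of the 5 Emx1-high libraries, with Emx1 at 28.3, 20.1 and 19.1. Pax7, a midbrain gene, was 865, 999 and 1280 in those 3 libraries and at most 357 in the other 9, and Hoxa5, a caudal hindbrain gene, was at most 13.2 in both males and 244 in the female. The lowest Emx2 levels were in WT male 1 and HT male 3, where Hoxa5 was 4570 and 1965.

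The ventral factors also had wide spans. Dlx1 was 68.3, 187 and 10.04 in HT males, 40.9, 6904 and 8252 in WT males, 646, 5659 and 11.3 in HT females and 7697, 56.6 and 6894 in WT females. Dlx2 was 22.3, 31.5 and 7.04 in HT males, 2.86, 1958 and 2148 in WT males, 114, 1585 and 5.72 in HT females and 2342, 11.1 and 1681 in WT females. Nkx2-1 was listed at 0 in HT male 1, WT male 1 and HT female 3, was between 1.48 and 14.5 in HT males 2 and 3, HT female 1 and WT female 2, and was between 239 and 453 in the 5 Emx1-high libraries. HT female 1 was the highest of the 7 remaining libraries for Emx1, Neurod6, Dlx1, Dlx2 and Nkx2-1. The P0 spans of the 9 factors, from 3.22 log2 units for Lhx2 to 9.55 for Dlx1, were each larger than those of at least 94.2% of the 18338 genes with a mean of 10 or more, whose median span was 0.99. This is a description, since the 9 were chosen with such results known.

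Zic5 went the other way, with a Pearson's r of -0.779 with Emx1 over the 12 newborn libraries. It was 2161, 1650 and 1674 in HT males, 1186, 478 and 118 in WT males, 1846, 352 and 1932 in HT females and 299, 872 and 729 in WT females. Its 5 lowest values were in the 5 Emx1-high libraries. Its chromosomal neighbor Zic2 was 2837, 2714 and 2881 in HT males, 2109, 1057 and 294 in WT males, 3159, 808 and 2927 in HT females and 556, 1914 and 1509 in WT females, and its 5 lowest values were in the same 5 libraries.

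The genes most like each factor were read across the 12 newborn libraries from 13401 genes with a mean of at least 100, by Pearson's r of log2 values. The reading is a description, and why genes ran together was not tested. Emx1 had Dlx1 (r = 0.978) among its 3 closest genes, Dlx1 had Dlx6os1 (0.995) and Dlx5 (0.992), and Dlx2 had Dlx5 (0.996) and Tbr1 (0.996). The dorsal genes Emx1 and Tbr1 thus ran closely with Dlx1 and Dlx2. Emx2, also dorsal, did so less, with r of 0.63 with Dlx1 and 0.563 with Nkx2-1. Neurod6 was closest to Fam49a (0.997), Zbtb18 to C130071C03Rik (0.989), Lhx2 to Dab1 (0.981) and Nkx2-1 to Dlx6 (0.991) and Lhx6 (0.980). Emx2 was closest to Otx1 (0.967), a gene of the forebrain and midbrain, and then to Lcorl (0.932) and Bag5 (0.903). Otx1 was 229, 323 and 36.2 in HT males, 4.37, 449 and 451 in WT males, 104, 439 and 122 in HT females and 347, 418 and 557 in WT females. Zic5 was closest to Zic2 (0.991), and Nhlh2 (0.959) was also among its 3 closest.

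Genotype at P0 was tested within each sex on log2(normalized count + 1) with limma, a linear model fitted over all genes with Benjamini-Hochberg adjustment and a threshold of 0.05. None of the 9 factors passed it in males, where 0% of 18375 genes did and 1318 had an unadjusted p under 0.05. None passed in females, where 0.00547% of 18291 genes did, a single gene, and 393 had an unadjusted p under 0.05. In males Neurod6 was lower in every HT than in every WT library, by a difference of -2.75 ± 0.84 on the log2 scale (SE, n = 3 against 3, limma adjusted p = 0.628), and Zic5 was higher in every HT library, by 2.15 ± 0.73 (adjusted p = 0.664). With 1 library left out at a time, the Neurod6 difference ran from -3.86 without WT male 1 to -2.19 without WT male 3, and that of Zic5 from 1.27 without WT male 3 to 2.93 without WT male 1. These 2 of 9 stood beside 12.1% of all genes tested whose HT and WT male libraries did not overlap. In females Emx2 gave a difference of -1.27 ± 0.52 (adjusted p = 0.976), and 0 of 9 factors and 7.35% of all genes separated the genotypes. The male result rested on 1 library: without WT male 1, the WT male low in Emx1, 8 of 9 factors passed beside 19.7% of 18321 genes. These were all but Emx2, with Zic5 higher and the other 7 lower in HT. All HT males were high in En2, so region content and genotype cannot be told apart in males, with or without WT male 1. The 6 choroid plexus markers, led by Ttr in 11 of the 12 libraries, also ranged widely at P0, from 292 in WT female 1 to 74814 in WT male 1 in their sum, and the 9 meningeal markers, led by Col1a2, from 4013 in WT male 3 to 22848 in HT male 3, and their part in these values was not tested.

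All 9 factors were still detected in all 24 libraries at P25 and P80, with no value at 0. At P25 Emx1 ranged from 317 to 433 with a median of 350, Emx2 from 167 to 243 with a median of 183, and Lhx2 from 932 to 1178 with a median of 1072. Neurod6 ranged from 1473 to 1962 (median 1706) and Zbtb18 from 11029 to 12595 (median 11517). The ventral factor Dlx1 ranged from 898 to 1828 (median 1355), Dlx2 from 107 to 302 (median 213) and Nkx2-1 from 43.5 to 73.9 (median 62.2), and Zic5 ranged from 535 to 674 (median 587). No such split was seen at this age. The widest P25 span was 1.48 log2 units for Dlx2, and the narrowest was 0.19 for Zbtb18. HT female 3 had the lowest and WT male 3 the highest P25 level of both Dlx1 and Dlx2.

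At P80 Emx1 ranged from 246 to 382 (median 335), Emx2 from 119 to 238 (median 196), Lhx2 from 1065 to 1331 (median 1129), Neurod6 from 1316 to 1459 (median 1375) and Zbtb18 from 10061 to 11077 (median 10777). Dlx1 ranged from 1287 to 1624 (median 1506), Dlx2 from 210 to 290 (median 246), Nkx2-1 from 43.6 to 73.4 (median 58.2) and Zic5 from 442 to 612 (median 499). Zbtb18 and Neurod6 were the steadiest of the 9, with a coefficient of variation over the 12 libraries of 2.64% and 2.95%, and Emx2 the least steady, with 20.1%. Only 2.20% of 18153 genes had a smaller P80 span than Zbtb18, and 3.17% a smaller one than Neurod6. The 26 midbrain and hindbrain markers summed to between 2429 and 3610 in all 24 later libraries, led by En2 in each, and the 9 factors to between 15453 and 18034.

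Per kilobase of merged exon, the mean P80 level was 1746 for Zbtb18, 642 for Neurod6, 277 for Dlx1, 262 for Lhx2, 152 for Emx1, 106 for Zic5, 85.7 for Dlx2, 61.1 for Emx2 and 20.6 for Nkx2-1. Zbtb18, Neurod6 and Nkx2-1 did not overlap with their neighbors in this order. Dlx1 and Lhx2 overlapped over the 12 libraries (239 to 301 against 242 to 303 per kilobase), as did Emx1 and Zic5, Zic5 and Dlx2, and Dlx2 and Emx2, so these pairs have no firm order.

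**Figure D2:**
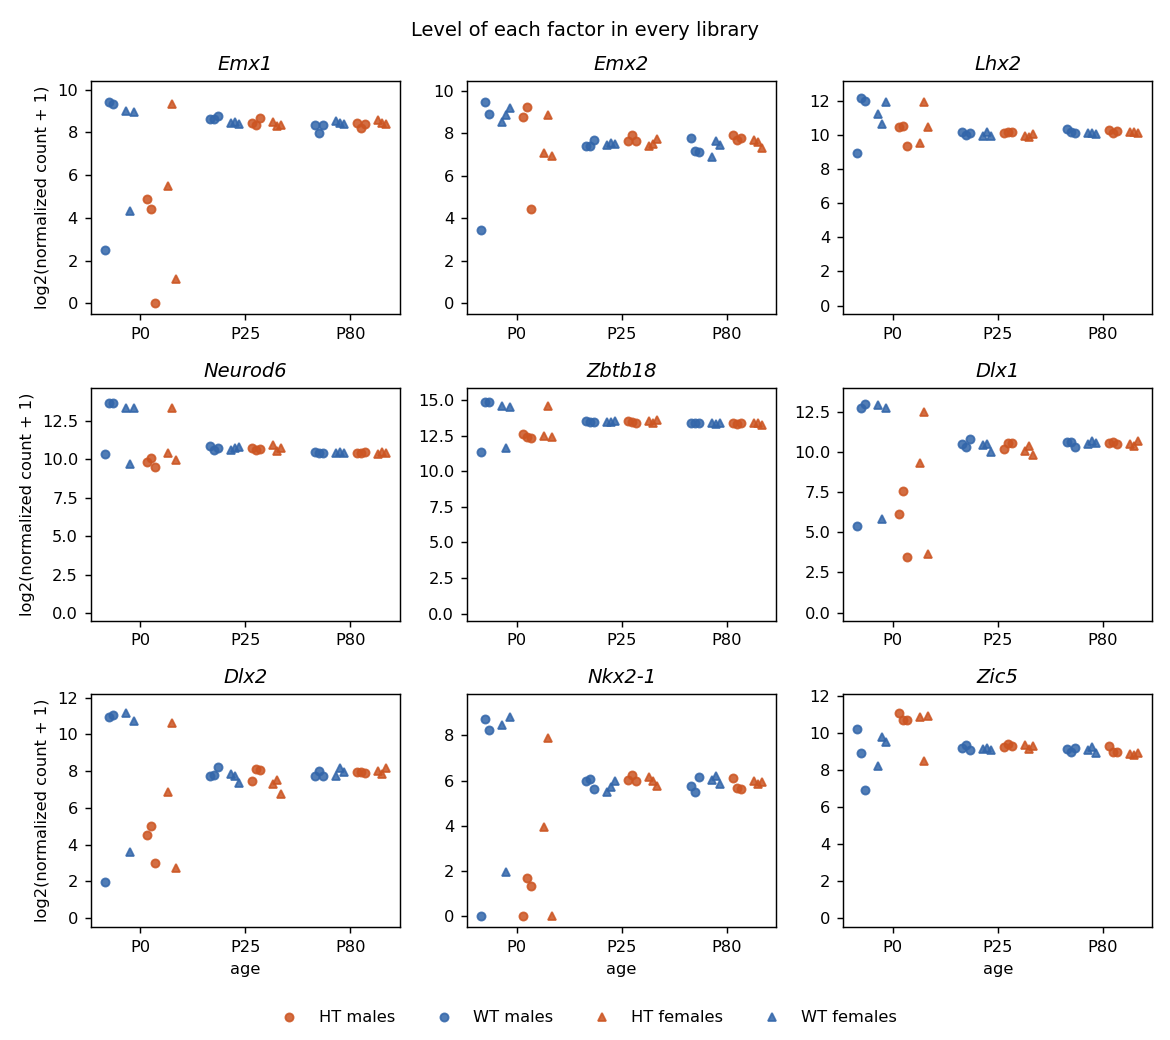
Each panel is 1 factor and each point 1 library, with log2(normalized count + 1) on the y axis and age on the x axis; blue is WT, orange HT, circles males and triangles females. The P0 points spread over 3.22 to 9.55 log2 units, and the P25 and P80 points over at most 1.48.

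Whether the factors differed between genotypes after P0 was tested in each sex and age, in both sexes together with sex as a covariate, and as a sex by genotype interaction. None of the 9 passed the threshold in any of these 8 comparisons. At P25, 0.0166% of 18068 genes passed in males (3 genes), 0% of 18213 in females and 0.0276% of 18146 in both sexes. With the replicate number as a block, 5 genes passed in P25 males, where the numbers were taken as pairing the libraries. At P80, 0.0166% of 18092 passed in males, 0.0385% of 18167 in females and 0.0331% of 18153 in both sexes. For the interaction 0% passed at either age, with 615 genes at P25 and 895 at P80 under an unadjusted p of 0.05, and no factor among them. An unadjusted p under 0.05 was found for 0 factors and 629 genes in P25 males and for 1 factor and 1094 genes in P25 females. At P80 it was found for 1 factor in each sex, beside 831 genes in males and 2057 in females. Over both sexes it was found for 1 factor at each age, Zic5 at P25 beside 1079 genes and Emx2 at P80 beside 1684.

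At P80 Emx2 had the largest difference of the dorsal factors in each sex. In P80 males it was 238, 201 and 215 in HT against 219, 143 and 137 in WT, where WT male 1 lay inside the HT range. The difference was 0.42 ± 0.17 on the log2 scale (SE, n = 3 against 3, limma p = 0.0339, adjusted p = 0.9999), or 0.63 without WT male 1, and over both sexes it was 0.31 ± 0.14 (n = 6 against 6, limma adjusted p = 0.522, exact permutation within sex, two-sided p = 0.115). Emx2 in P80 females was 202, 194 and 158 in HT against 119, 198 and 176 in WT, which overlapped. Over both sexes Emx1 gave an HT minus WT difference of -0.11 ± 0.07 at P25 and 0.08 ± 0.08 at P80 (SE). Emx2 at P25 gave 0.14 ± 0.09 over both sexes. The remaining dorsal factors lay closer to 0, with 0.01 ± 0.04 and -0.01 ± 0.03 for Zbtb18, -0.02 ± 0.06 and 0.02 ± 0.03 for Neurod6, and -0.01 ± 0.05 and 0.01 ± 0.05 for Lhx2.

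Among the ventral factors, Dlx2 in P25 females was 157, 183 and 107 in HT against 229, 213 and 165 in WT, a difference of -0.46 ± 0.20 (SE, limma adjusted p = 0.827), with HT female 2 above WT female 3, and -0.24 without HT female 3. The Dlx2 difference at P25 was -0.03 ± 0.19 in males and -0.25 ± 0.16 over both sexes. In P80 females it was 255, 230 and 290 in HT against 210, 286 and 246 in WT, and the difference was 0.07 ± 0.14, with 0.09 ± 0.09 over both sexes. Dlx1 gave -0.18 ± 0.12 over both sexes at P25 and -0.02 ± 0.06 at P80, and Nkx2-1 gave 0.23 ± 0.13 and -0.05 ± 0.14.

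Zic5 in P80 females was 465, 442 and 475 in HT against 530, 592 and 484 in WT, so the lowest WT library stood just above the highest HT library. The difference was -0.21 ± 0.09 (SE, limma adjusted p = 0.407), or -0.14 without WT female 2. Zic5 was the 1 of 9 factors whose P80 female libraries did not overlap, beside 17.6% of all genes tested. At P25 the count was 0 of 9 in each sex, beside 8.55% of genes in males and 11.9% in females, and in P80 males it was 0 beside 9.54%. At P25 Zic5 lay higher in HT, by 0.13 ± 0.06 over both sexes (limma adjusted p = 0.818, exact permutation within sex, two-sided p = 0.065). In the P25 males, whose numbers were taken as pairing them, Zic5 was 599, 674 and 627 in HT against 575, 637 and 535 in WT. The difference with these pairs as a block was 0.12 (limma adjusted p = 0.706). Zic5 and Nkx2-1 were higher and Emx1 and Neurod6 lower in HT in all 3 male pairs, 4 of 9 factors beside 29.8% of 18068 genes with 1 direction in all 3. These are single genes out of many tested, and none passed.

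**Figure D3:**
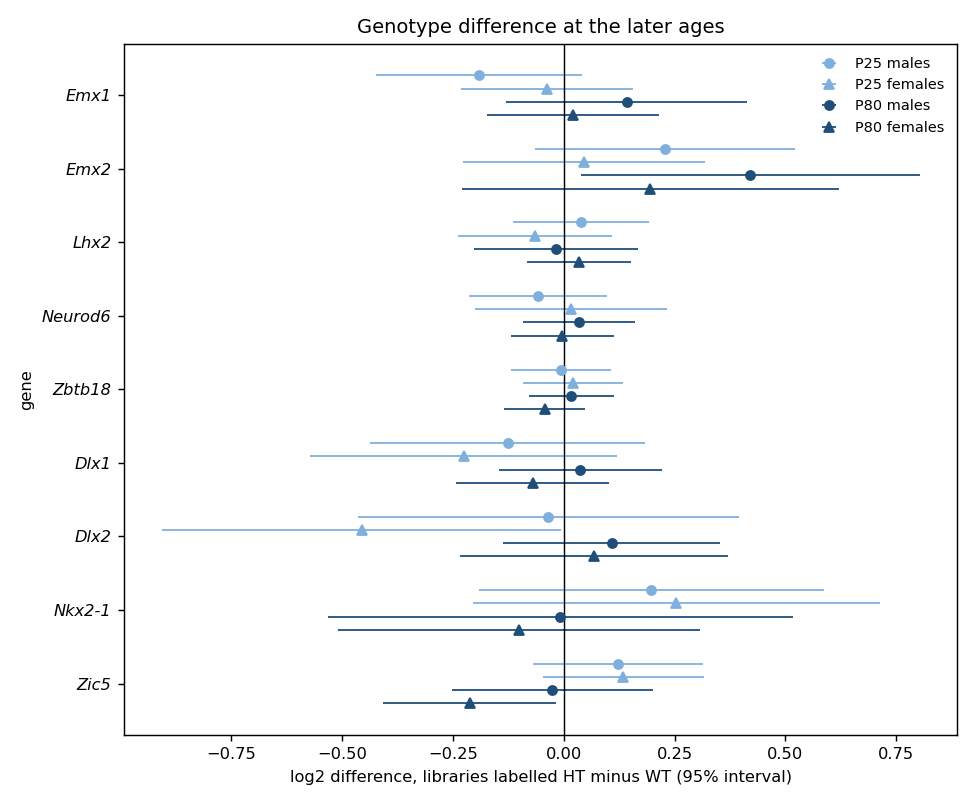
Log2 difference (HT minus WT) of each factor at P25 (light) and P80 (dark) in males (circles) and females (triangles), with 95% limma intervals, n = 3 against 3. The interval excludes 0 for Emx2 in P80 males, Dlx2 in P25 females and Zic5 in P80 females, and no difference passed adjustment over all genes.

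The step from P0 to P25 was tested in WT libraries with sex as a covariate, 6 against 6. None of the 9 factors passed, whereas 71.5% of 18482 genes did, and 2 factors had an unadjusted p under 0.05. Lhx2 gave -1.08 ± 0.46 and Neurod6 -1.61 ± 0.68 on the log2 scale (SE, limma adjusted p = 0.0503 and 0.0504). The WT newborns with Hoxb3 above 100, WT male 1 and WT female 2, were then removed, a choice made after seeing the data and on Hoxb3. They were also the 2 WT newborns with the lowest levels of every factor but Emx2 and Zic5, and the 2 highest for Zic5. Their removal therefore fixed part of the outcome in advance, by raising the newborn levels of the low factors and narrowing their spread. With 4 newborn and 6 P25 libraries, 8 of 9 factors passed, all lower at P25, beside 79.6% of 18401 genes. The differences were -3.19 ± 0.14 for Dlx2, -2.78 ± 0.07 for Neurod6, -2.76 ± 0.16 for Nkx2-1, -2.42 ± 0.12 for Dlx1, -1.76 ± 0.12 for Lhx2, -1.52 ± 0.15 for Emx2, -1.23 ± 0.06 for Zbtb18 and -0.62 ± 0.07 for Emx1. Emx1 was 1.29 ± 1.13 higher at P25 with all 6 newborns (0.24 without WT male 1 alone), and so turned direction. Zic5, at 0.76 ± 0.36, did not pass (limma adjusted p = 0.0675). Without WT male 1 alone, 3 of 9 passed (Emx2, Lhx2 and Neurod6, all lower at P25), beside 75.9% of 18439 genes. The 4 newborn libraries kept had En2 at no more than 5.99, while En2 led the midbrain and hindbrain list in every P25 library, so region content and age cannot be told apart here. In HT libraries the same step took 4 of 9 past the threshold, beside 72.1% of 18524 genes, each in the direction opposite to the WT fit without both newborns. Emx1 rose by 4.22, Nkx2-1 by 3.55 and Dlx1 by 3.17, and Zic5 fell by 1.17 (limma adjusted p between 0.00592 and 0.0327). Dlx2 gave 2.08, Zbtb18 0.69, Neurod6 0.20, Emx2 0.10 and Lhx2 -0.33 and did not pass. Only HT female 2 of the 6 HT newborns was among the 5 Emx1-high libraries.

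The step from P25 to P80 was small for all 9, from -0.31 to 0.11 on the log2 scale. Neurod6 fell by 0.31 ± 0.05, from 1708 ± 122 to 1373 ± 30.2 (SD, n = 6 each), with an adjusted p of 7.85e-05. Zbtb18 fell by 0.10 ± 0.03 (adjusted p = 0.0146), from 11576 ± 400 to 10761 ± 222. These 2 of 9 stood beside 41.9% of 18154 genes, 3911 of them higher and 3690 lower. Emx1 gave -0.22 ± 0.10 and missed the threshold (limma adjusted p = 0.0807), but passed without WT female 1 of P80 (-0.26, adjusted p = 0.0498) and with scaling to equal column sums (-0.26, adjusted p = 0.0407), where the count was 3 of 9 each time. Without WT male 2 of P80 the Emx1 difference was -0.13. In HT libraries the same step took 5 of 9 past it: Neurod6 fell by 0.28, Zbtb18 by 0.13 and Zic5 by 0.32, while Dlx1 rose by 0.27 and Dlx2 by 0.43 (limma adjusted p between 0.00156 and 0.0485), beside 40.4% of 18193 genes in the same fit. Whether HT and WT differ in this step was not tested.

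**Figure D4:**
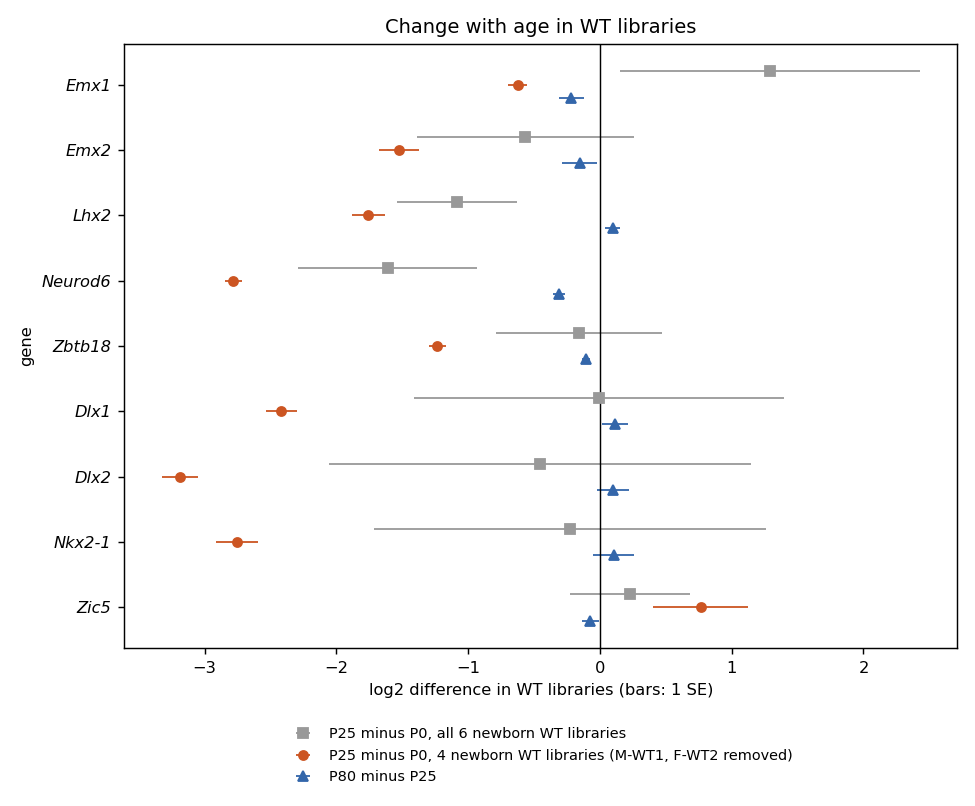
Log2 difference with age in WT libraries, with 1 SE bars, for P25 minus P0 with all 6 newborns (gray squares), the same without M-WT1 and F-WT2 (orange circles) and P80 minus P25 (blue triangles). With the 2 newborns removed the factors other than Zic5 lie between -3.19 and -0.62, and the P80 step lies between -0.31 and 0.11. Those 2 were the lowest WT newborns for most of the factors, so their removal favored a fall.

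Other telencephalic transcription factors were counted for comparison. From P25 to P80 in WT, 12 of 18 tested dorsal genes passed (5 higher, 7 lower, median -0.11 of the 18) and 14 of 23 tested ventral genes (10 higher, 4 lower, median 0.13), beside the 41.9% and a median of 0.01 over all genes. The LIM-only gene Lmo4 gave -0.12 ± 0.04, Cux1 0.10 ± 0.03, the ventral homeobox gene Dlx5 0.47 ± 0.09 and Meis2 0.25 ± 0.06, and Satb1, which shapes interneurons, -0.25 ± 0.05, all with a limma adjusted p under the threshold. From P0 to P25, 9 of 19 dorsal (1 higher, 8 lower) and 12 of 24 ventral genes (1 higher, 11 lower) passed, beside 71.5% of 18482 genes (6587 higher, 6630 lower). Between HT and WT, none of the dorsal, ventral or other Zic genes passed in any of the 10 genotype and interaction comparisons. In P80 females 5 of 19 dorsal and 3 of 23 ventral genes had an unadjusted p under 0.05, beside 11.3% of all genes.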

How the data were processed

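Per the labels, total RNA was prepared with a TruSeq RNA v2 kit, and the authors quantified paired-end reads on GRCm38 with Salmon 1.1.0 and normalized them in R 3.6.2 with DESeq2 1.26.0. The deposited table holds this signal, normalized estimated counts, for 29799 Ensembl genes in 36 libraries (29747 with a symbol). Whole reads cannot be recovered from it. All 36 columns matched a sample, and no 2 were identical. The members and gene lists were chosen with earlier results of these data known. Genotype, interaction and age comparisons were fitted with limma 3.58.1 in R 4.3.3 on log2(value + 1) keeping genes whose mean in the fitted libraries reached 10, with Benjamini-Hochberg adjustment over all genes tested and a threshold of 0.05. A log2 difference on this scale understates the change of low genes. Single values over both sexes were also tested by exact permutation within sex (400 regroupings, smallest p 0.005). Per kilobase levels divide normalized counts by GENCODE merged exon length. Fits were tested on simulated data, with no outcome reported here. Replicates are labelled separate samples, and p-values measure the spread between them.

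The text names Chd8, the 9 factors, the 2 most abundant and first 2 listed genes of each list, list genes past a genotype threshold, and the 3 genes most like each factor, of which some are not reported here. Hoxb3, Hoxa5, Pax7, Otx1 and the other genes outside that rule were named after their values were seen. Same-numbered HT and WT libraries deviated together in P25 males (r between 0.14 and 0.289), so there the replicate number was taken as pairing them. No label states such a pairing. Alternatives varied the filter, pseudocount, scaling, block, genotype and libraries.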

Additional observations from a re-analysis of the deposited data

How the results depend on the processing

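Counts of factors past the threshold stayed at 0 in all 10 genotype and interaction comparisons under every filter, pseudocount, scaling, block and shared model run, with 1 exception among single libraries left out: without WT male 1 at P0 the male count went from 0 to 8. For WT P25 against P0 the count of factors went from 0, beside 71.5% of all genes, to 1 with a minimum mean of 100 (75.5% of genes), 2 with a pseudocount of 10 (71.7%), 2 with the replicate block (70.1%), 4 with HT in place of WT libraries (72.1%), 8 without both Hoxb3-high newborns (79.6%), and 0 to 3 over single libraries left out (68.4% to 75.9%; 3 without WT male 1). For P80 against P25 it went from 2, beside 41.9%, to 5 in HT libraries (40.4%), 3 with equal column sums (42.4%), and 2 to 3 over single libraries left out (3 without WT female 1 of P80, 38.5%).

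Over all genes, the replicate block gave 2 (males) and 0 (females) at P0, 5 (males) and 3 (both sexes) at P25, and 0 (males) and 3 (females) at P80. No filter gave 6 and pseudocounts of 0.1 and 10 gave 0 in P80 males, and a minimum mean of 100 gave 0 in P0 females. The single model of 24 libraries gave 4 in P25 females, and 10 and 23 in both sexes at P25 and P80. Leaving out 1 library gave 0 to 3610 (males, most without WT male 1) and 0 to 2 (females) at P0, 0 to 2 in either sex at P25, 0 to 3 (males) and 0 to 14 (females) at P80, 3 to 6 and 4 to 13 in both sexes at P25 and P80, and 0 to 1 and 0 to 2 for the interactions. Only the P25 male numbers were taken as pairing the samples, from their correlation and not from a label. Elsewhere same-numbered libraries were not taken as pairs. Their r was between -0.713 and -0.179 in P0 females. In P80 males it was between 0.0186 and 0.0838, and each of the 3 HT libraries correlated best with the WT library of its own number. Beyond WT P25 against P0, the block changed no factor count.

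Directions turned for WT P25 against P0 with HT in place of WT libraries (Emx2 0.10, Neurod6 0.20, Zbtb18 0.69, Dlx1 3.17, Dlx2 2.08, Nkx2-1 3.55, Zic5 -1.17), without both Hoxb3-high newborns (Emx1 -0.62), for Dlx1 with a pseudocount of 0.1 (0.0033), median-of-ratios scaling (0.0127) and equal column sums (0.0726), and for Nkx2-1 with a pseudocount of 0.1 (0.37). For P80 against P25 in HT libraries Emx2 gave 0.0183 and Nkx2-1 -0.17. Leaving out single libraries moved WT P25 against P0 from -0.67 to 0.11 for Zbtb18, -1.14 to 0.56 for Dlx1, -1.84 to 0.19 for Dlx2, -1.53 to 0.40 for Nkx2-1 and -0.20 to 0.54 for Zic5. The cause was not tested. Scaling to equal column sums moved the median of all genes by 0.15 log2 units in P0 males. The depth of single genes in reads is unknown.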
